A study of Mus musculus with 47 samples.

Results

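Lmo1, C1qtnf12, Fam13c, Erc2, Fez1, Epop, Gfra2, Nrg2, Ankrd34a and Dagla are 10 nuclear genes, of 56748 in the count table, that were selected because their RNA was lower in cultured melanoma cells edited at m.11,944 of Mt-Nd5 and also lower in tumors grown from cells edited at m.12,436 of the same gene. The values that chose them were those of m.11,944 60% cells against control cells and of m.12,436 60% tumors against control tumors, so these differences are given as a description. The criteria of the choice did not include the tumors of m.12,436 40% cells or the comparison of control tumors with control cells. Nor did they include the difference between culture numbers or the leukocyte content of the tumors. The levels in control cells and in control tumors did enter the choice, as the controls of both contrasts. The median log2 fold change of the 10 genes was -0.84 in the cells, -0.84 in 60% tumors and -0.07 in 40% tumors.

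RNA was sequenced from B78-D14 cells, an amelanotic mouse melanoma line, in which a mitochondrial base editor had introduced a truncating G>A change in Mt-Nd5, a complex I subunit encoded by mitochondrial DNA, at a heteroplasmy (the share of mitochondrial genomes that carry the change) near 60% or 40%. This share is that of the edited cells, and the paper reports a small decrease of it in the tumors they formed. The cells compared were 4 cultures of m.11,944 60% and 4 of control cells, grown with uridine after sorting. The tumors compared were 7 of m.12,436 60%, 7 of m.12,436 40% and 4 control tumors, each a piece of a tumor formed under the skin of an immunocompetent male C57BL/6 mouse, whose age the sources of the study give in more than 1 way. Each mutant is an edited and sorted population of 1 parental line, the site edited differed between the cells and the tumors, and a tumor piece also holds host cells, so that fewer cells of a type and less RNA per cell cannot be told apart.

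The genes are known from different parts of cell biology, and several are best known from neurons. Gfra2 is a receptor for a ligand of the GDNF family and signals through Ret, Nrg2 is a neuregulin that activates ErbB receptors, C1qtnf12 is a secreted protein of the C1q and TNF-related family, and Dagla is the lipase that makes the main endocannabinoid from diacylglycerol. Lmo1 is a LIM-only cofactor of transcription known as a neuroblastoma and leukemia oncogene, and Epop is an accessory subunit of Polycomb repressive complex PRC2 that also binds elongin. Erc2 is a scaffold of the presynaptic active zone and Fez1 is an adaptor that links cargo to kinesin. Fam13c and Ankrd34a are named for their families, and their functions are less well described. Melanocytes and many peripheral neurons both descend from the neural crest.

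The members lie on 9 chromosomes (GRCm39 and GENCODE coordinates, all protein-coding). Gfra2 (chr14:71127472-71217280) and Erc2 (chr14:27344274-28200509) are both on the plus strand of chromosome 14, far from each other. Single members lie on chromosome 7 (Lmo1, chr7:108737777-108774528, minus), chromosome 4 (C1qtnf12, chr4:156046736-156051087, plus), chromosome 10 (Fam13c, chr10:70225670-70394834, plus) and chromosome 9 (Fez1, chr9:36708024-36790237, plus). The others are on chromosome 11 (Epop, chr11:97518215-97520528, minus), chromosome 18 (Nrg2, chr18:36149819-36330456, minus), chromosome 3 (Ankrd34a, chr3:96501570-96507944, plus) and chromosome 19 (Dagla, chr19:10222629-10282320, minus). Exons of Ankrd34a shared 646 bases with Polr3gl and those of Fez1 shared 77 bases with Ei24, genes on the opposite strand with up to 901 and 5037 counts in a library. Whether the counting used strand is not given in the sources used here, so reads in these stretches cannot be told apart. Fam13c and Nrg2 shared 1765 and 1071 bases with Phyhipl and Psd2, which had at most 3 and 26 counts. For Nrg2 this is 25.4% of its exonic bases. Nrg2 itself held 7 to 13 counts in 60% tumors and 22 to 37 in control tumors, so reads of Psd2 could matter there.

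Libraries held between 16475735 and 36173502 counts in genes, with ranges that overlapped between groups. A gene was counted as past the threshold at a Benjamini-Hochberg adjusted p under 0.1 in edgeR, and levels are in CPM, the counts of a gene relative to the total of its library, scaled by TMM within the fit of the cells or of the tumors. No label says that the samples of a group came from separate cultures or animals beyond their numbers, though the paper describes its bulk tumor samples as individual tumors. The p-values measure the spread between these samples. Leukocyte markers summed to between 997 and 1320 CPM in control tumors, 1151 and 1898 in 60% tumors and 1030 and 1262 in 40% tumors, against 35.7 to 67.2 in control cells. The B78-D14 cells are amelanotic, and 10 of 19 genes of the list of melanocyte lineage and neural crest genes had enough counts to be tested in tumors and 6 in cells.

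The 250 bases before the start of the canonical transcript are shown for 4 of the 5 members whose 60% tumors overlapped neither the control nor the 40% tumors, so that the sequence can be read beside their values. Nrg2 meets the same criterion and its window is not shown. Each runs from 5′ to 3′ on the strand of the gene, and capitals mark a match on either strand to 1 of 10 short motifs. These are the E-box CACGTG and its variant form CATGTG, the composite site TGATGNAA that ATF4 binds, the cAMP response element TGACGTCA, the hypoxia element in its forms ACGTG and with another first base GCGTG, the box known as CCAAT, the GC box GGGCGG, the TATA box TATAAA and the left part of the site of the repressor Rest, TTCAGCACC. ACGTG lies within CACGTG, so matches to both can be the same bases. The windows are chr7:108774415-108774664 on the minus strand for Lmo1, chr4:156046486-156046735 for C1qtnf12, chr10:70276248-70276497 for Fam13c and chr9:36743726-36743975 for Fez1. The windows of Fam13c, Fez1 and Nrg2 lie wholly inside the annotated gene, which begins well before the start of its canonical transcript. They are not windows at the 5′ end of the gene.
Lmo1: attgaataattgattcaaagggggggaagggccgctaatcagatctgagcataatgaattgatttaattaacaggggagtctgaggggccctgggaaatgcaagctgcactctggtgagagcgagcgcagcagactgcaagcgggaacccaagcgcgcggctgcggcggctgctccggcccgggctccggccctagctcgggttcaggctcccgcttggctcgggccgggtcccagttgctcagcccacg
C1qtnf12: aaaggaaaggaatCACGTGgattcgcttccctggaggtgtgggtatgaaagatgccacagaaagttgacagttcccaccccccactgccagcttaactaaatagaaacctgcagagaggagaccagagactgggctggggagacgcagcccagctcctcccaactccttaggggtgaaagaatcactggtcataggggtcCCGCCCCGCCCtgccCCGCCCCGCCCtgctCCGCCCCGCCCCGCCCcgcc
Fam13c: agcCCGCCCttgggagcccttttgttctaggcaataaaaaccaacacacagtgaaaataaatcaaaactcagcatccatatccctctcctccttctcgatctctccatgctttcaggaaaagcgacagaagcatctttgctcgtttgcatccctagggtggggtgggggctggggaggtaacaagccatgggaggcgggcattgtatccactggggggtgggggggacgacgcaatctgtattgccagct
Fez1: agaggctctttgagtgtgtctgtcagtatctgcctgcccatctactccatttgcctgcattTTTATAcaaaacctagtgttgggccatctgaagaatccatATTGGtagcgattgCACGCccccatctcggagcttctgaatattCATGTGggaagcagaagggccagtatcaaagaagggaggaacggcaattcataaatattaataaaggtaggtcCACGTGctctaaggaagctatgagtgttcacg

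The 4 windows have little in common by these letters. That of Lmo1 held no match, that of Fam13c held GGGCGG alone, that of C1qtnf12 held a run of GGGCGG matches on its reverse strand near the start and CACGTG far from it, and that of Fez1 held CACGTG as well as CATGTG, then GCGTG along with CCAAT, and also TATAAA. Over the 10 members GGGCGG was found in 6, GCGTG in 5, CCAAT in 4 and CACGTG in 3. The same motifs were found in 36.3%, 31.2%, 36.5% and 6.26% of the windows of 21770 protein-coding genes. CATGTG matched 1 member against 10.5% of all windows, TGATGNAA 1 against 3.39%, TGACGTCA 1 against 1.70% and TATAAA 1 against 11.9%. ACGTG matched 3 against 17.0%, and TTCAGCACC matched no member against 0.266%. The median GC content was 62.0% in the members and 53.2% in all windows, and a ratio of observed to expected CpG over 0.6 was found in 6 members and in 38.8% of all windows.

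In cultured cells, every member was lower in the m.11,944 60% culture than in the control culture of the same number, in 40 of 40 such pairs. Same-numbered cultures deviated together, so the number was taken as a pair. In the edgeR fit without the pairs 0 of 10 members passed the threshold, where 0.0309% of 12930 genes were called lower, and with the pairs as a block 10 of 10 did, where 4.09% of genes were called lower. The members were chosen on this contrast, so nothing is read from these counts. All m.11,944 60% cultures lay under all control cells for 3 members, Lmo1, Erc2 and Gfra2, and for 1.86% of genes. The count with the block fell to 4 without pair 1 or without pair 2, and was 8 and 9 without pair 3 and pair 4.

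**Figure D1:**
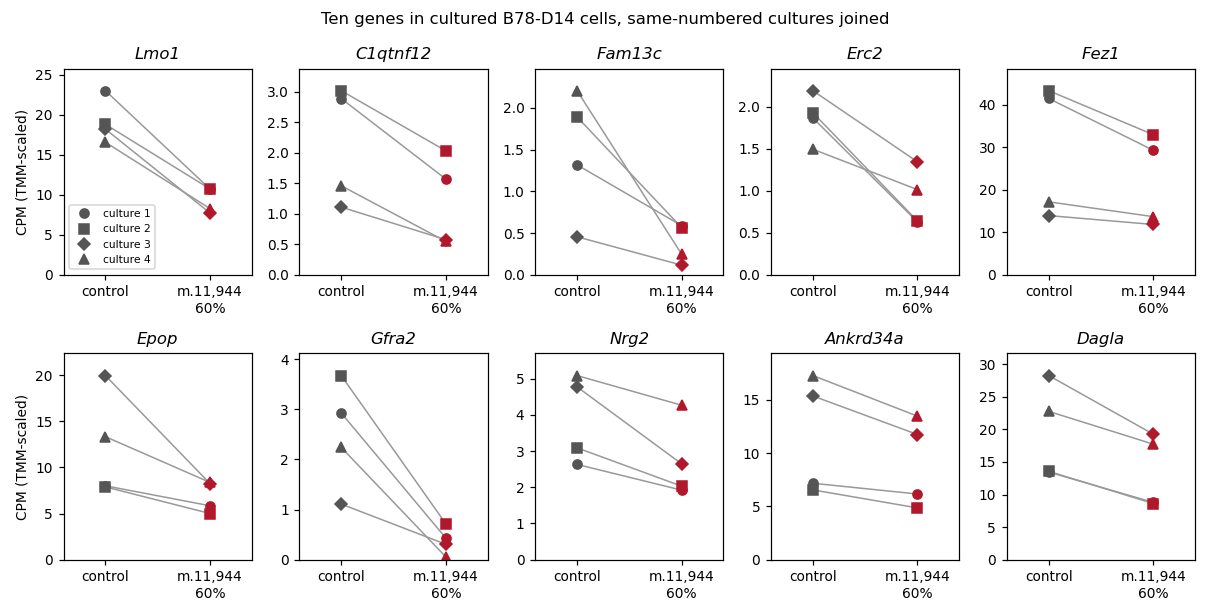
CPM of each member (vertical axis, from 0) in the 4 control and the 4 m.11,944 60% cultures, with a line joining cultures of the same number. All 40 lines fall from control to m.11,944 60%, while for Fez1, Dagla and Ankrd34a cultures 1 and 2 lie apart from cultures 3 and 4 in both groups.

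Among the receptors and ligands, Gfra2 had the largest difference in culture. Control cultures 1 to 4 held 2.93, 3.67, 1.11 and 2.24 CPM of Gfra2 and m.11,944 60% cultures held 0.431, 0.715, 0.307 and 0.0547 CPM. The groups did not overlap, and the log2 fold change was -2.80 ± 0.36 (SE) with the pairs as a block, although these levels rest on between 2 and 19 counts in the edited cells. Nrg2, a ligand rather than a receptor, differed less, with 2.63, 3.09, 4.78 and 5.09 CPM in control cultures and 1.92, 2.03, 2.65 and 4.27 in edited cultures, a log2 fold change of -0.53 ± 0.16 in which the groups overlapped. C1qtnf12, the secreted member, held 2.89, 3.02, 1.11 and 1.46 CPM in control cultures and 1.57, 2.03, 0.575 and 0.547 CPM in edited cultures. Its groups overlapped, with cultures 3 and 4 low in both, and the log2 fold change was -0.90 ± 0.20. Dagla, the lipase, held 13.5, 13.6, 28.3 and 22.8 CPM in control and 8.78, 8.62, 19.3 and 17.7 CPM in edited cultures, with cultures 3 and 4 high in both. Its log2 fold change was -0.54 ± 0.09.

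Of the nuclear factors, Lmo1 was the member whose cultures of a group were most alike. Its levels were 23.0, 18.8, 18.2 and 16.6 CPM in control cultures and 10.7, 10.7, 7.71 and 8.26 CPM in edited cultures. The groups were well apart, with a log2 fold change of -1.04 ± 0.10. Epop held 8.01, 7.89, 20.0 and 13.3 CPM in control cultures and 5.84, 5.00, 8.25 and 8.37 CPM in edited cultures, so that edited cultures 3 and 4 lay above control cultures 1 and 2. The log2 fold change of Epop with the pairs as a block was -0.78 ± 0.14.

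The scaffold Erc2 held 1.86, 1.93, 2.19 and 1.49 CPM in control cultures and 0.627, 0.640, 1.34 and 1.01 CPM in edited cultures, without overlap, and its log2 fold change was -1.04 ± 0.24. The kinesin adaptor Fez1 had a small difference on a large spread. Control cultures held 41.4, 43.3, 13.9 and 17.1 CPM of Fez1 and edited cultures 29.3, 32.9, 11.8 and 13.7, a log2 fold change of -0.37 ± 0.08 once the pairs were blocked. Fam13c held 1.32, 1.89, 0.455 and 2.21 CPM in control and 0.588, 0.564, 0.115 and 0.246 CPM in edited cultures. Control culture 3 lay among the edited cultures, and the log2 fold change of Fam13c was -1.99 ± 0.33 on 3 to 15 counts in the edited cells. Ankrd34a had the smallest difference, with 7.17, 6.54, 15.4 and 17.3 CPM in control and 6.16, 4.85, 11.7 and 13.5 CPM in edited cultures, a log2 fold change of -0.35 ± 0.10.

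In tumors of m.12,436 60% cells, 68 of the 70 values of the 10 members lay under the lowest control tumor. All 10 members passed the threshold for lower RNA, where 1.34% of 16213 genes did, and 8 did not overlap with the control tumors, where 2.66% of genes did not. This contrast too chose the members, so nothing is read from either count. The count past the threshold was 5 without 60% tumor 1 and 6 without control tumor 1 or without control tumor 3, and every member was lower under each of these fits. With the leukocyte marker score as a covariate the median log2 fold change was -0.87, and 3 members, C1qtnf12, Lmo1 and Nrg2, passed.

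**Figure D2:**
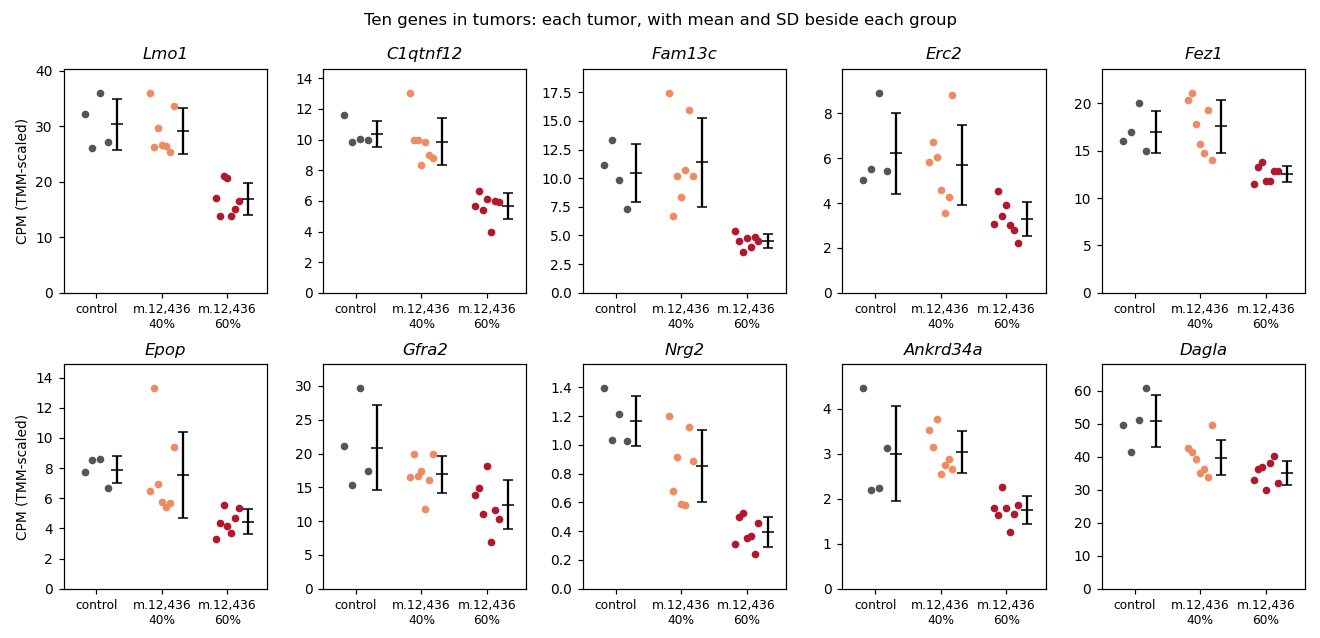
CPM of each member (vertical axis, from 0) in 4 control, 7 m.12,436 40% and 7 m.12,436 60% tumors, each point a tumor, with the mean and SD in black beside each group. The 60% tumors sit under every control tumor in 8 panels, and some 40% tumors lie under the lowest control tumor in every panel but that of Ankrd34a, with 5 of 7 there for Dagla and for Nrg2.

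Of the ligands, Nrg2 had the largest fall in tumors and the fewest counts. The 4 control tumors held 1.39, 1.03, 1.22 and 1.03 CPM of Nrg2, the 60% tumors 0.241, 0.367 and 0.526 CPM (lowest, median and highest) and the 40% tumors 0.582, 0.885 and 1.20 CPM. The 60% tumors lay under both other groups, with a log2 fold change of -1.56 ± 0.24 against control tumors on 7 to 13 counts a library, and 5 of 7 40% tumors lay under the lowest control tumor. C1qtnf12 held 11.6, 9.86, 10.04 and 9.94 CPM in control tumors, 3.99, 5.94 and 6.65 in 60% tumors and 8.35, 9.86 and 13.1 in 40% tumors. Its 60% tumors were again under both other groups, with a log2 fold change of -0.86 ± 0.13. Among the receptors and ligands, Gfra2 showed the least separation of 60% from control tumors. It held 21.1, 15.3, 29.6 and 17.5 CPM in control tumors, 6.98, 11.6 and 18.2 CPM in 60% tumors and 11.8, 16.7 and 20.0 CPM in 40% tumors. 1 of the 60% tumors lay within the control range of Gfra2, and the log2 fold change was -0.75 ± 0.21, against -2.80 in culture. Dagla, the member with the highest CPM in tumors, held 49.6, 41.4, 51.2 and 60.7 CPM in control tumors, 29.9, 36.3 and 40.1 CPM in 60% tumors and 33.8, 39.3 and 49.6 CPM in 40% tumors. All 60% tumors and 5 of 7 40% tumors lay under the lowest control tumor for Dagla, and the log2 fold change at 60% was -0.53 ± 0.11.

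Both nuclear factors were low in every 60% tumor. Lmo1 held 32.1, 26.02, 36.05 and 27.1 CPM in control tumors, 13.8, 16.5 and 21.0 CPM in 60% tumors and 25.4, 26.7 and 35.97 CPM in 40% tumors. The gap between the 60% tumors and both other groups was wide, and the log2 fold change against control tumors was -0.84 ± 0.13. Epop held 7.77, 8.53, 8.59 and 6.67 CPM in control tumors, 3.27, 4.39 and 5.54 in 60% tumors and 5.40, 6.47 and 13.3 CPM in 40% tumors. The 40% tumors ran from under the lowest to above the highest control tumor, and the log2 fold change of Epop at 60% was -0.83 ± 0.21.

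Of the other 4 members, Fam13c had the most negative log2 fold change in tumors. Control tumors held 11.2, 13.4, 9.84 and 7.33 CPM of Fam13c, 60% tumors 3.60, 4.53 and 5.42 CPM and 40% tumors 6.74, 10.2 and 17.5 CPM. Its log2 fold change at 60% was -1.20 ± 0.21. Erc2 held 5.03, 5.50, 8.92 and 5.41 CPM in control tumors, 2.20, 3.04 and 4.53 CPM in 60% tumors and 3.57, 5.81 and 8.82 CPM in 40% tumors, a log2 fold change of -0.93 ± 0.23 at 60%. Fez1 held 16.04, 16.9, 20.1 and 14.9 CPM in control tumors, 11.5, 12.9 and 13.8 in 60% tumors and 13.997, 17.8 and 21.1 in 40% tumors. Its 60% tumors lay in a narrow band under both other groups, with a log2 fold change of -0.44 ± 0.11. Ankrd34a held 4.45, 2.20, 2.24 and 3.13 CPM in control tumors, 1.26, 1.79 and 2.27 in 60% tumors and 2.55, 2.88 and 3.77 in 40% tumors, so that the highest 60% tumor passed the lowest control tumors but no 40% tumor. The log2 fold change of Ankrd34a was -0.77 ± 0.19.

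In tumors of m.12,436 40% cells, log2 fold changes were nearer to 0 than in 60% tumors for all 10 members. These values share the control tumors with the contrast that chose the members and are set beside it only. The log2 fold change was below 0 for 7 members and above 0 for 3, Fam13c (0.13), Fez1 (0.05) and Ankrd34a (0.03). Of the 70 values in 40% tumors, 26 lay under the lowest and 7 above the highest control tumor. Shares over all genes are not given for these counts, so nothing is read from them. The 95% interval of the 40% log2 fold change included 0 for 9 members. For 9 members, all but Dagla, its lower end lay above the log2 fold change seen at 60%. The margin was smallest for Gfra2 (-0.74 against -0.75) and larger for Lmo1 (-0.33 to 0.21, against -0.84) and Fam13c (-0.32 to 0.57, against -1.20). The values at 60% chose the members as low and have errors of their own, with an interval of -1.18 to -0.31 for Gfra2. Nothing is therefore read from this count. Dagla had an interval of -0.57 to -0.13 at 40%, and Nrg2 a wide one of -0.91 to 0.04.

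In edgeR, 0 members and 0% of 16213 genes were past the threshold as lower in 40% tumors, with 825 genes in either direction at an unadjusted p under 0.05, while DESeq2 called 5 genes and limma-voom 0. No member had 40% tumors wholly under the control tumors, as 0.278% of genes did. Between 60% and 40% tumors, which share the 60% tumors with the choice, all 10 members were lower at 60%, with a median log2 fold change of -0.79. The threshold was passed by 8, all but Gfra2 (-0.44 ± 0.18) and Dagla (-0.18 ± 0.09), where 0.993% of genes passed as lower. With the leukocyte marker score as a covariate all 10 were still lower, but 3 passed. The 60% tumors lay wholly under the 40% tumors for 6 members, Lmo1, C1qtnf12, Fam13c, Fez1, Nrg2 and Ankrd34a, and for 0.308% of genes. The members were chosen as low in the 60% tumors, so nothing is read from these counts.

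**Figure D3:**
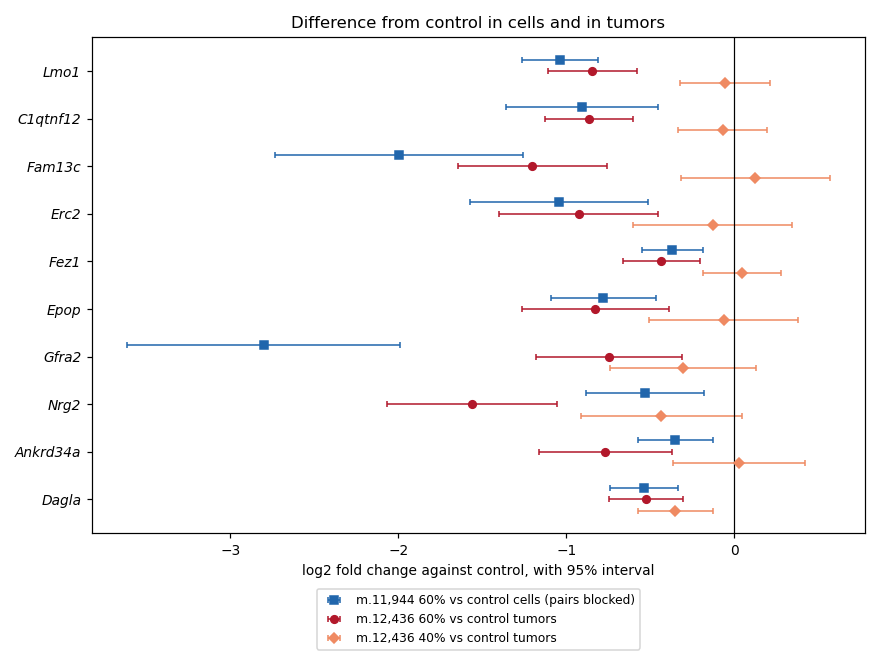
Log2 fold change against control (horizontal axis, with 95% interval) of each member in m.11,944 60% cells with the pairs blocked, m.12,436 60% tumors and m.12,436 40% tumors. Cells and 60% tumors lie left of 0 for all 10 members, and intervals at 40% include 0 for all but Dagla; the 2 tumor series share their 4 control tumors.

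Whether related genes moved was read from 12 lists of other genes. These are the families and partners of the members, melanocyte lineage and neural crest genes, and Rest with its corepressors. Of 95 with enough counts in tumors, 3 were lower and 1 was higher in 60% tumors past the threshold, where 1.34% of all genes were lower and 0.962% higher, with a median log2 fold change of -0.02, and none passed in 40% tumors. Of 72 in the cells, 5 were lower (Gdnf, Egfr, Nrg1, Sox9 and Hdac2) and 4 higher (C1qtnf1, Ulk2, Kif5c and Erbb2) with the pairs as a block, where 4.09% of all genes were lower and 3.02% higher, and none passed without it.

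The 3 that fell in 60% tumors were Gfra4, Artn and Pmel. Of the 8 genes tested in the GDNF list 2 were among them and 6 did not pass. Gfra4, a sister receptor of Gfra2, had a log2 fold change of -2.07 ± 0.41 (edgeR adjusted p = 0.018), and Artn, a ligand of the family, one of -0.69 ± 0.19 (edgeR adjusted p = 0.090). Pmel, a melanosome protein on the melanocyte list, stood at -2.21 ± 0.51 (edgeR adjusted p = 0.046), and at -2.75 in 40% tumors without passing there. The gene that rose was Ppfia3, a liprin of the active zone that Erc2 also scaffolds, at 0.73 ± 0.15 (edgeR adjusted p = 0.026), opposite in sign to Erc2.

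In the other lists no gene but the members passed in 60% tumors. Among neuregulins, their relatives and ErbB receptors, of which 11 of 15 were tested, the smallest p belonged to the receptor Erbb3 (log2 fold change -0.88 ± 0.26) and the ligand Btc (-0.67 ± 0.27). For the LIM-only family and its partners, these were Tal1 (-0.34) and Ldb2 (-0.33), and for the C1q and TNF-related family C1qtnf2 (-0.50) and C1qtnf9 (-0.20). All 13 genes of the PRC2 list other than Epop, which include the elongins Elob and Eloc, were tested, with Ezh1 at 0.19 and Phf19 at -0.22. In the list of Fez1 and kinesins Kif5c stood at 0.55 and Ulk2 at 0.14, among active-zone genes Ppfia4 at 0.58, and in the endocannabinoid list Cnr2 at 0.42 and Napepld at -0.20. The sister genes Fam13a and Fam13b stood at 0.24 and 0.18, above 0 where Fam13c was below it, and Ankrd34b and Ankrd34c had too few counts. Rest, the repressor of neuronal genes in other tissues, stood at 0.20 and its partner Hdac2 at -0.21.

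The level of the members differed between control tumors and control cells. The choice did not use this comparison, but its samples are the controls of both contrasts that chose the members, so it is no independent support. Tissue, batch and cell makeup cannot be told apart in it. All 10 passed the threshold in edgeR, 6 as higher in tumors, where 35.3% of 15047 genes were, and 4 as lower, where 29.9% were. Gfra2 and Fam13c rose most, from 0.739 ± 0.324 to 5.15 ± 1.51 CPM per kb of exon and from 0.169 ± 0.088 to 1.00 ± 0.247 CPM per kb (SD, n = 4 and 4, edgeR adjusted p = 0.000174 and 0.000692). C1qtnf12, Erc2 and Dagla were also higher in tumors, with log2 fold changes of 2.03 ± 0.33, 1.46 ± 0.25 and 1.11 ± 0.25. Lmo1 rose least, at 0.40 ± 0.15 (edgeR adjusted p = 0.052), and it missed the threshold in 5 of 11 alternatives, among them those without control culture 2 or 4 or without control tumor 1 or 3, with values between 0.28 and 0.37 and edgeR adjusted p between 0.105 and 0.183.

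The 4 members lower in tumors were Ankrd34a, Nrg2, Fez1 and Epop. Ankrd34a fell from 2.09 ± 0.984 to 0.451 ± 0.160 CPM per kb and Nrg2 from 1.00 ± 0.308 to 0.250 ± 0.0372 (SD, n = 4 and 4), log2 fold changes of -2.22 ± 0.39 and -2.003 ± 0.277 in edgeR. Fez1 and Epop fell by less, at -1.04 ± 0.36 and -0.91 ± 0.30. Per length of exon Lmo1 was the highest member in both, at 11.5 ± 1.75 CPM per kb in cells and 15.1 ± 2.21 in tumors, and Fam13c and Erc2 were the lowest in cells, at 0.169 and 0.177 CPM per kb, within their spread of each other. Host markers moved with this comparison: summed over their lists, leukocyte, fibroblast and endothelial markers reached 997 to 1320, 10780 to 12350 and 211 to 319 CPM in control tumors against 35.7 to 67.2, 568 to 1563 and 6.14 to 16.1 CPM in control cells. Neuron markers summed to 14.5 to 34.6 CPM in control tumors, 9.44 to 20.6 in 60% tumors and 12.4 to 26.7 in 40% tumors, and Schwann cell markers to 68.6 to 94.8, 58.7 to 97.6 and 57.9 to 86.7, with overlap between the groups for both. Of 5 neuron markers tested, 4 were lower in 60% tumors than in control tumors, with a median log2 fold change of -0.54. In 40% tumors 4 were lower, with a median of -0.23. Of 6 Schwann cell markers, 3 were lower in 60% tumors, with a median of -0.05. None of these markers passed the threshold. The part of these cells in the members' levels was not tested.

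**Figure D4:**
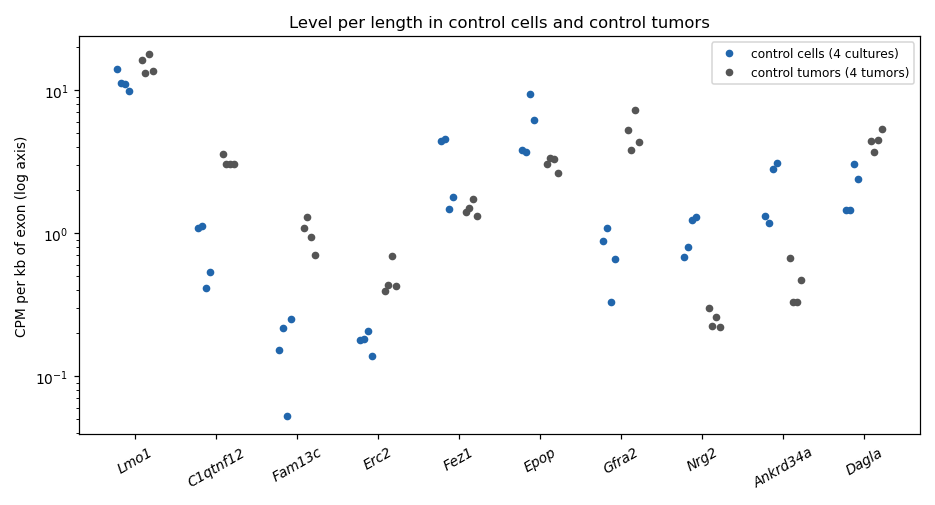
Level of each member in CPM per kb of exon (vertical log axis) in 4 control cultures and 4 control tumors. C1qtnf12, Fam13c, Erc2, Gfra2 and Dagla lie higher in every tumor than in any culture, while Epop, Nrg2 and Ankrd34a lie lower in every tumor.

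Culture number, which is balanced over the edited and control cells, was linked with the level of 9 of 10 members past the threshold in edgeR, where 64.2% of 12930 genes were. The members split in direction. Against culture 1, cultures 3 and 4 were lower for Fez1 by log2 differences of -1.45 and -1.19 and for C1qtnf12 by -1.40 and -1.20, and higher for Dagla by 1.10 and 0.89 and for Ankrd34a by 1.02 and 1.20. Gfra2 was lower and Epop and Nrg2 were higher in cultures 3 and 4, Lmo1 differed little (-0.39 and -0.43), and Fam13c was low in culture 3 (-1.81) but not in culture 4 (0.15). Erc2 did not pass (edgeR adjusted p = 0.39).

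Within the tumor groups, a leukocyte score, the mean log2 CPM of 12 leukocyte markers, had a median of 6.00 in control, 6.05 in 40% and 6.46 in 60% tumors. The slope of the members on this score, in a fit that also holds the group, was not used by the choice. No member passed the threshold in edgeR, where 1.09% of 16213 genes fell and 5.54% rose with the score, and 1 had an unadjusted p under 0.05. That member was Dagla, with a slope of -0.42 ± 0.19 log2 units per unit of score (edgeR adjusted p = 0.33), which passed with 40% tumor 7 left out (-0.50). The slope was below 0 for 7 members and above 0 for C1qtnf12, Epop and Gfra2. With the score as a covariate the log2 fold change in 60% tumors moved from -0.53 to -0.38 for Dagla and from -0.75 to -0.90 for Gfra2.

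The members are part of a longer list, for 51 of the 12728 genes tested in both cells and tumors were lower past the threshold in m.11,944 60% cells with the pairs as a block and in m.12,436 60% tumors. This is 9.64% of the 529 genes lower in the cells and 23.4% of the 218 lower in the tumors, and without the block 1 gene is in both. The 51 include all 10 members. Of the other 41, the 5 with the most negative summed log2 fold change were named by that value: the noradrenaline transporter Slc6a2 (-5.97 in cells and -2.87 in tumors), the secreted glycoprotein Stc1 (-4.60 and -2.48), the serotonin transporter Slc6a4 (-2.85 and -3.57), 9930014A18Rik (-2.89 and -2.32) and the Wnt ligand Wnt5b (-1.65 and -1.93). All 5 lay further from 0 in sum than any member. Chromosome 8 held 16 of the 51 genes but no member, and held 5.54% of the genes tested in both. Chromosome 14 held 7, Gfra2, Erc2 and Stc1 among them, and 3.31% of the genes tested.

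**Figure D5:**
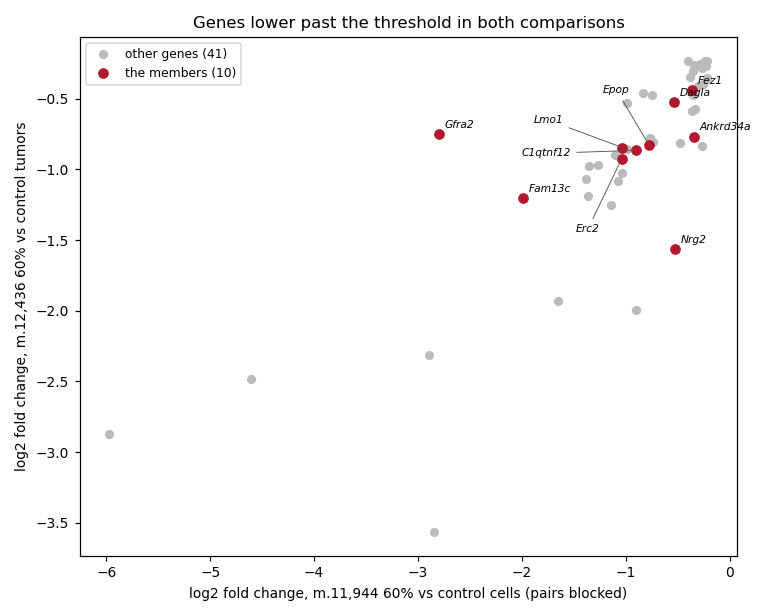
Log2 fold change in m.11,944 60% cells with the pairs blocked (horizontal axis) and in m.12,436 60% tumors (vertical axis) of the 51 genes lower past the threshold in both, the 10 members in red. Both axes were used to choose the genes shown, the members lie between -2.80 and -0.35 in cells and -1.56 and -0.44 in tumors, and Slc6a2 lies furthest left.

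The gene whose pattern over the 26 libraries was most like that of a member was measured by the root mean square difference of centred log2 CPM among 12727 genes. Nrg2 and Ankrd34a were each the nearest gene to the other, at 0.39, where the median gene was 1.24 from Nrg2 and 1.13 from Ankrd34a. Fez1 lay nearest to Slc38a7 (0.19), Dagla to Cers4 (0.23), Lmo1 to Stox2 (0.29), Epop to Rhou (0.33), C1qtnf12 to Lrrn3 (0.35) and Erc2 to Rapgef4 (0.36). Fam13c was nearest to Loxl2 (0.54) and Gfra2 to Col6a2 (0.66), the loosest matches, and both members had the largest spread over the libraries, with SDs of 1.76 and 2.06 log2 units. Cells and tumors both enter this measure, so genes that differ between them in the same way score as alike.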

How the data were processed

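Reads had been mapped by the authors to GRCm39 (STAR) and assigned to genes (featureCounts), and what they deposited is a single table of unnormalized counts, with 56748 genes and 47 columns. Strand settings are not given in the sources used here. The study tested such counts with limma-voom after TMM scaling at a false discovery rate of 0.1. Here 26 columns were matched to samples by name, number and the headings of the source data, and 21 were not used because no source says which sample they hold. Positions came from GENCODE, which matched 56017 genes.

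Counts were fitted in R 4.3.3 with edgeR 4.0.16 (TMM, filterByExpr, robust quasi-likelihood tests, two-sided, threshold adjusted p under 0.1), with the 8 cultures, the 18 tumors and the controls of both fitted separately, each on all genes. Fits were tested on simulated data. Alternatives were limma-voom 3.58.1, DESeq2 1.42.0, its size factors, no filter, only the 2 groups compared, the replicate block, an adjusted p under 0.05, the leukocyte score as a covariate and each sample left out. Leaving out pairs of cultures under the block was added after seeing the data.

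The correlation of deviations from the group means, across genes, between same-numbered cultures was 0.72 to 0.83 in 4 pairs, so the numbers in the labels pair the cultures. It was -0.35 to -0.02 between control and 60% tumors, which are not paired. Intervals cover the spread between samples.

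The members and gene lists were chosen with earlier results of these data known. Named are the members, the 2 genes of each family list with the smallest p in 60% tumors, the gene most like each member and the 5 genes with the most negative summed log2 fold change among others lower in both contrasts. Genes named in addition were chosen after their values were seen. Promoter windows were read from the GRCm39 genome.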

Additional observations from a re-analysis of the deposited data

Results flagged for a closer look

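Among 50 groups of values of the 10 members, 3 held a sample far from the rest by Dixon's criterion, which flags about 1 in 20 groups by chance. C1qtnf12 stood at 11.6 CPM in control tumor 1, where the other control tumors lay between 9.86 and 10.04 CPM, and at 13.1 CPM in 40% tumor 1, where the next highest was 9.99 CPM. Erc2 stood at 8.92 CPM in control tumor 3, where the next highest was 5.50 CPM. All 3 are high values in groups that lay above the 60% tumors.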

How the results depend on the processing

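All 10 members were lower in m.11,944 60% cells and in m.12,436 60% tumors under every alternative run, in 170 of 170 and 180 of 180 values, and the median log2 fold change stayed between -0.89 and -0.75 in cells and -0.88 and -0.76 in tumors. In 40% tumors 12 of 180 values, of 6 members, had the other sign, with medians between -0.12 and -0.01. Counts of all genes past the threshold moved more. In cells the 5 genes became 84 with DESeq2, 919 with the replicate block, 89, 110, 602 and 2092 with the block and pair 1, 2, 3 or 4 left out, and 0 whichever culture was left out. In 60% tumors the 374 genes became 150 at an adjusted p under 0.05, 1056 with DESeq2 (46.5% of them lower, against 58.3%), 943 with only the 2 groups compared, 178 with the replicate block, and 66 (without control tumor 3) to 724 (without control tumor 4) with a tumor left out. In 40% tumors the 0 genes became 5 with DESeq2 and 0 to 4 with a tumor left out. Between 60% and 40% tumors the 293 genes became 113 at an adjusted p under 0.05, 744 with DESeq2, 178 with no filter on low counts, and 108 (without 60% tumor 1) to 452 (without 40% tumor 4) with a tumor left out. The 0 members past the threshold for the leukocyte slope became 0 to 1 with a tumor left out. The cause was not tested. The numbers of the tumors do not pair them, and with that block 5 of 10 members passed in 60% tumors. Depth limits Gfra2 and Fam13c in edited cells and Nrg2 in 60% tumors, where libraries held 2 to 19, 3 to 15 and 7 to 13 counts.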
